A study of Caenorhabditis elegans with 8 samples.

Results

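The 10 genes described here code for proteins that release calcium from the endoplasmic reticulum (ER), take it up again, or respond to it, and they were examined in the transcriptome of *C. elegans* treated with Urolithin A (UA). They were picked by name from the 46928 genes of the deposited table, and all 10 had enough counts to be among the 13720 genes tested. They are the release genes *itr-1*, *unc-68* and *tmco-1*, the ER uptake and storage genes *sca-1* and *crt-1*, the mitochondrial uniporter gene *mcu-1*, the kinase gene *unc-43*, and the calcineurin genes *tax-6*, *cnb-1* and *rcan-1*. The 8 libraries came from whole wild-type N2 animals fed OP50 bacteria at 20°C, with 4 populations given 50 μM UA, a gut-derived metabolite of plant ellagitannins, and 4 left untreated. Each library was made from a pellet of pooled animals of 1 population, so that a difference between tissues or between animals cannot be seen. The age of the animals is uncertain, because the methods give a harvest on adult day 1 and the design text submitted with the counts gives UA exposure that began in L4 larvae and ended on adult day 4.

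The ER is the main calcium store of the cell. The pump SERCA fills it, the buffer protein calreticulin holds calcium in its lumen, and inositol trisphosphate (IP3) receptors and ryanodine receptors let calcium out into the cytosol. Part of the released calcium enters mitochondria through the uniporter, and part binds calmodulin, which activates the kinase CaMKII and the phosphatase calcineurin. In nematodes these proteins are known for their parts in muscle contraction, the defecation rhythm, ovulation and sensory behaviour.

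Each library held 41890058 to 43055719 fragments assigned to genes, and the 10 genes held from 400 fragments (*rcan-1* in control replicate 1) to 53205 fragments (*crt-1* in UA replicate 4). Markers of body wall and pharyngeal muscle, neurons, intestine, germline, gonad and hypodermis were detected, as the whole-animal label implies. Sperm markers were sparse, with a summed level of 5.02 to 7.95 CPM (counts scaled to the normalized library size) and no counts for *msp-3*, *msp-10* and *msp-113*. Summed intestine markers ranged from 32970 to 51365 CPM in control and from 40583 to 51736 in UA, and summed hypodermis markers from 168 to 204 and from 135 to 180.3. A single collagen gene, *col-19*, held 106 of 192 CPM of the hypodermis sum in the control means and 73.2 of 154 in the UA means. The hypodermis sum therefore says little about the other hypodermis markers. The log2 fold change of *col-19* was -1.03 in replicates 1 and 2 and -0.10 in replicates 3 and 4. In bulk RNA, fewer cells of a type and less RNA per cell cannot be told apart. Replicates 1 and 2 of both conditions stood apart from replicates 3 and 4 across the transcriptome, a grouping that no label names, so values are also given within each of these pairs of numbers. The summed intestine markers differed the same way, with 32970 to 42119 CPM in replicates 1 and 2 and 51226 to 51736 in replicates 3 and 4. That sum was mostly *vit-2* and *vit-6* (control means 19385 and 22596 of 43458 CPM), so it says little about the other intestine markers. The part of these markers in the results was not tested.

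The 10 genes differed far more from each other than between the conditions. Levels were compared as CPM per kb of summed exon length, since a long transcript gives more fragments than a short one. *crt-1* was the most abundant at 828 ± 50.4 CPM per kb in control (SD, n = 4), and *unc-68* the least at 1.64 ± 0.269 (SD, n = 4). In control, *crt-1* lay above 98.9% of the genes tested, *itr-1* above 42.7% and *unc-68* above 29.8%. The order in control was *crt-1*, *sca-1*, *tmco-1*, *mcu-1*, *cnb-1*, *tax-6*, *rcan-1*, *unc-43*, *itr-1* and *unc-68*. The pump *sca-1* (137 ± 4.45) and the channel gene *tmco-1* (129 ± 7.13) did not differ beyond their spread in control, nor did *cnb-1* (16.6 ± 1.22) and *tax-6* (14.5 ± 2.02; CPM per kb, SD, n = 4 each). *tax-6* was above *rcan-1* (10.8 ± 1.35) in all 8 libraries, although the lowest control value of *tax-6* and the highest of *rcan-1* were level at 12.3. For the other 6 neighbouring pairs, the 4 control values of the more abundant gene all lay above those of the next. The genes for filling and buffering the store thus stood at the top of the order, and the genes of the large release channels at the bottom. The exon lengths run from 767 bases in *tmco-1* to 16197 in *unc-68*, and a loss of coverage away from the poly(A) tail would lower the long genes. This was not tested.

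**Figure D1:**
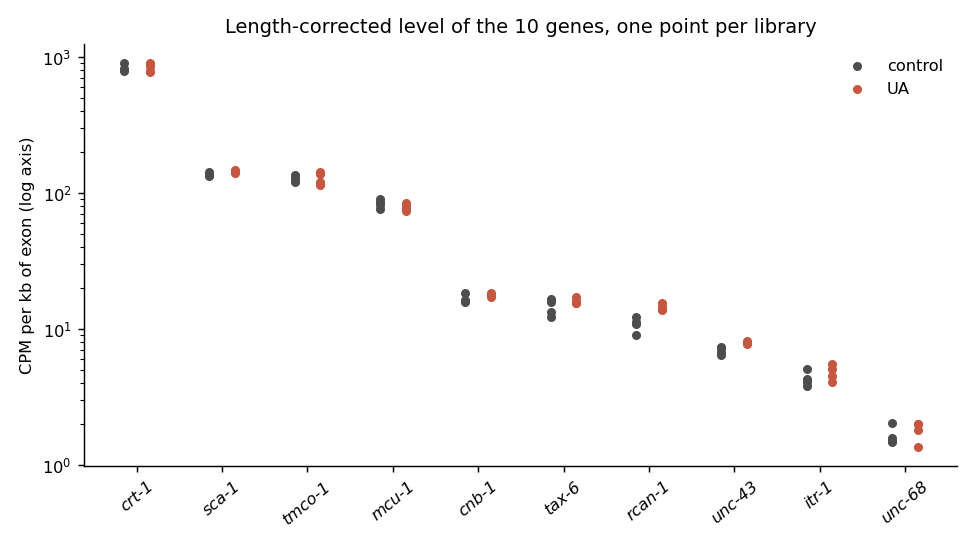
CPM per kb of exon (log axis) for the 10 genes, ordered by their control mean, with 1 point per library and 4 libraries in each condition. *crt-1* sits near 828 and *unc-68* near 1.64, while the control and UA points of each gene lie close together.

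Between UA and control, 1 of the 10 genes met the thresholds of the study's methods, a change of over 1.2-fold at an unadjusted p under 0.05 in edgeR's quasi-likelihood test. It was *rcan-1*, which rose. These thresholds called 5.67% of all genes tested, and 4.12% as higher in UA, so the count of 1 in 10 is no result about the 10 genes as a group. At an unadjusted p under 0.05 alone 2 of the 10 passed, *rcan-1* and *unc-43*, against 7.25% of all genes. None passed an adjusted p under 0.05 in edgeR, as did 0.0948% of all genes, while DESeq2 passed 1.23% of all genes and, of the 10, *rcan-1*. The 4 UA values were all above the 4 control values in 2 of the 10 (3.06% of all genes), again *rcan-1* and *unc-43*. The log2 fold change was above 0 in 8 of the 10 (48.9% of all genes), with a median of 0.11 against -0.0030 over all genes. When libraries with equal numbers were compared, the UA value was the higher in 4 of 4 for *itr-1*, *unc-43* and *rcan-1* (10.6% of all genes), and the lower in 4 of 4 for *mcu-1* (9.94% of all genes). For *unc-43* and *rcan-1* this follows from the separation of the groups. The labels do not pair equal numbers. Most of the 10 varied less between populations than the median gene tested. Their median biological coefficient of variation was 0.0949, against 0.154 over all genes, and that of *sca-1* (0.0533) was lower than in all but 1.47% of genes. The values of *itr-1*, *rcan-1* and *unc-68* lay above 40.7%, 42.9% and 50.3% of genes. The genes tested include many with fewer counts, and the comparison was not matched for level.

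**Figure D2:**
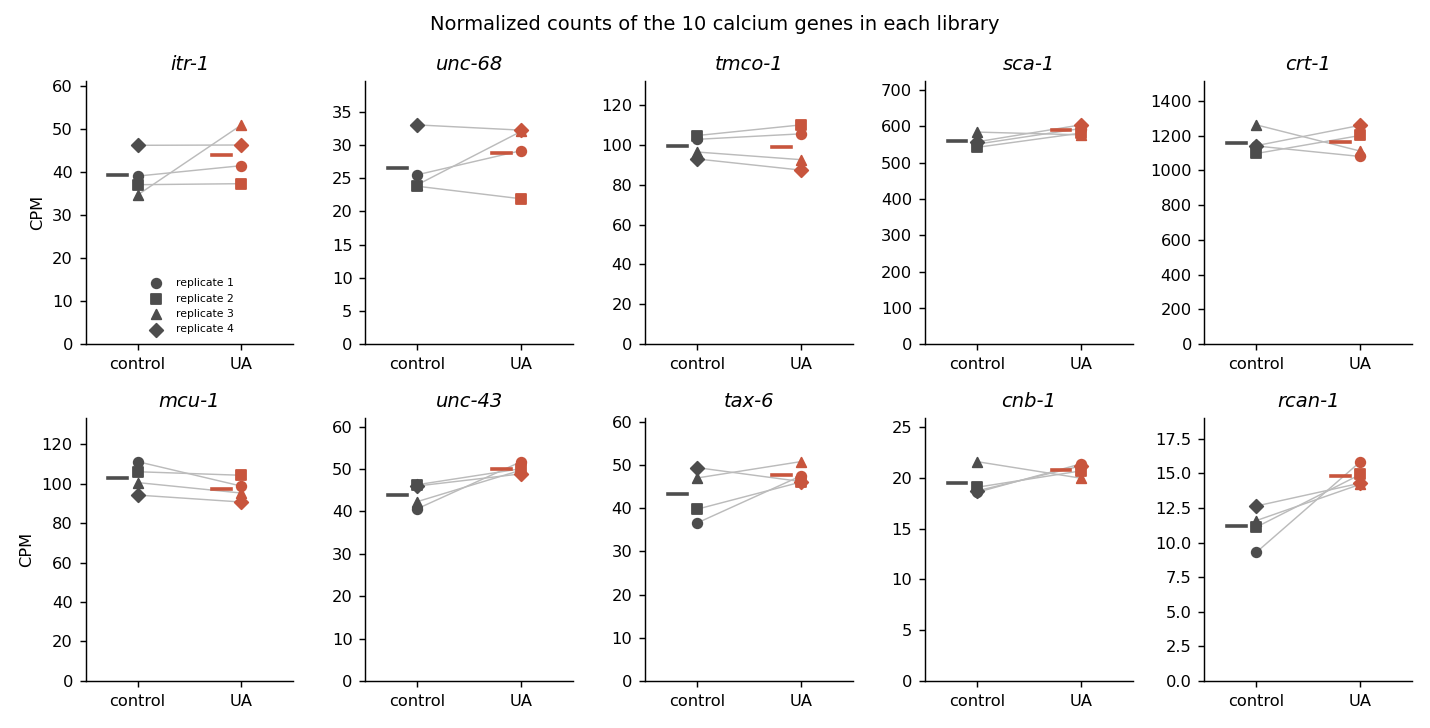
CPM of each of the 10 genes in control (grey) and UA (red) libraries, with 1 panel per gene, axes from 0, lines joining equal replicate numbers and bars at the means. The 4 UA points lie above the 4 control points for *unc-43* and *rcan-1*, and the points of the other 8 genes overlap.

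Calcineurin is a calcium-dependent phosphatase made of the catalytic subunit TAX-6 and the calcium-binding regulatory subunit CNB-1, and RCAN-1 belongs to the calcipressin family, which binds calcineurin and inhibits it. *rcan-1* (CELE_F54E7.7) lies on the reverse strand of chromosome III of WBcel235, from 5682301 to 5684098, with 4 exon blocks and 1030 exon bases. It had 9.30, 11.1, 11.6 and 12.6 CPM in control replicates 1 to 4, and 15.8, 14.9, 14.2 and 14.3 CPM in UA replicates 1 to 4. The lowest UA library was above the highest control library. The mean rose from 11.2 ± 1.39 to 14.8 ± 0.756 CPM (SD, n = 4 each), a fold change of 1.33 with a 95% interval of 1.12 to 1.57. edgeR's unadjusted p was 0.0035 and its adjusted p 0.318, which ranged from 0.0213 to 0.808 over the 15 alternatives tried. DESeq2 gave an adjusted p of 0.0235 for *rcan-1*, so that the call at an adjusted p depended on the tool. The rise of *rcan-1* met the study's thresholds with each of the 8 libraries left out in turn (log2 fold change 0.33 to 0.48). The log2 fold change was 0.60 in replicates 1 and 2 (adjusted p = 0.0213 in edgeR) and 0.23 in replicates 3 and 4 (adjusted p = 0.808), where the thresholds were missed. The difference between these values did not pass the interaction test (log2 -0.36, unadjusted p = 0.063, adjusted p = 0.603).

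*tax-6* (CELE_C02F4.2, chromosome IV, reverse strand, 10492869 to 10501600) had 36.6, 39.8, 47.0 and 49.4 CPM in control replicates 1 to 4 and 47.5, 46.1, 50.8 and 46.2 CPM in UA. Control replicates 1 and 2 were the lowest of the 8, and the other 6 libraries lay close together. The fold change of *tax-6* over all libraries was 1.10 (95% interval 0.956 to 1.27, adjusted p = 0.821 in edgeR). In replicates 1 and 2 alone, *tax-6* was higher with UA (log2 fold change 0.30, adjusted p = 0.042), and there 2 of the 10 genes, *rcan-1* and *tax-6*, met the study's thresholds (11.8% of all genes) and the same 2 an adjusted p under 0.05 (3.98%). In replicates 3 and 4 alone the value for *tax-6* was 0.0071 (adjusted p = 0.988), and 0 of the 10 met the thresholds (5.55% of all genes). The interaction of UA with the pair of numbers had an unadjusted p of 0.0209 for *tax-6* (8.55% of all genes were under 0.05) and an adjusted p of 0.491, so that the difference did not pass after adjustment. No interaction of the 10 genes did, against 0.0802% of all genes.

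*cnb-1* (CELE_F55C10.1, chromosome V, forward strand, 11375742 to 11378006) ranged from 18.6 to 21.6 CPM in control and from 20.0 to 21.4 in UA. Its fold change was 1.07 (95% interval 0.949 to 1.201, adjusted p = 0.858 in edgeR), so that neither a small fall nor a rise near 1.2-fold was outside the interval. Since *tax-6* and *cnb-1* make the enzyme and *rcan-1* its inhibitor, their counts per kb were set against each other within each library, where the normalization cancels. The ratios use the same libraries, in which the rise of *rcan-1* was already known. Their p-values are therefore no separate support for that rise. The *rcan-1* to *tax-6* ratio was 0.736, 0.809, 0.714 and 0.740 in control replicates 1 to 4 and 0.966, 0.938, 0.809 and 0.896 in UA. The lowest UA value, that of replicate 3, was barely above the highest control value, that of replicate 2. The ratio was 1.202-fold higher with UA (exact permutation test, two-sided p = 0.0286, which is the lowest value possible with 4 and 4 libraries). It was higher in 4 of 4 replicate numbers, which follows from the separation of the groups. Over the 9 ratios between the 10 genes that were tested, the adjusted p was 0.257 and none passed. The *rcan-1* to *cnb-1* ratio was 1.25-fold higher, in 3 of 4 numbers (exact permutation test, p = 0.0571, adjusted p = 0.257), and the *cnb-1* to *tax-6* ratio was 1.16 in control and 1.11 in UA (exact permutation test, p = 0.571, adjusted p = 0.643). In control, the *rcan-1* transcript was thus present at 0.749 of the level of *tax-6* per kb, and in UA at 0.900. Without any 1 of the 4 control libraries, or without UA replicate 1 or 2, the exact permutation test of the *rcan-1* to *tax-6* ratio gave p = 0.0571, with a log2 difference of 0.23 to 0.30.

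**Figure D3:**
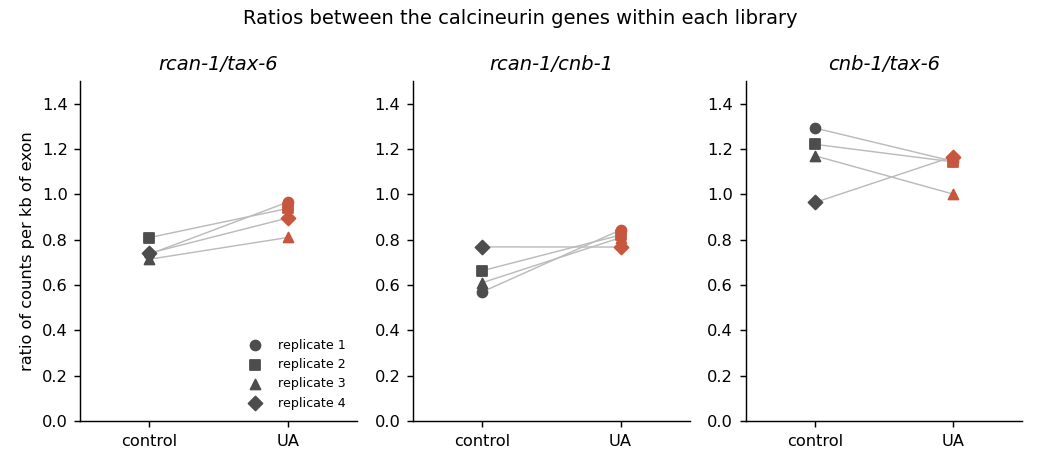
Ratio of counts per kb of exon between the 3 calcineurin genes in each library, control in grey and UA in red, with lines joining equal replicate numbers. For *rcan-1* over *tax-6* the UA points start at 0.809, level with the highest control point at 0.809, while for *cnb-1* over *tax-6* the groups overlap.

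*unc-43* (CELE_K11E8.1) codes for CaMKII, a kinase of neurons and muscle that calcium and calmodulin activate. The gene spans 10324254 to 10350217 of chromosome IV on the reverse strand, with 22 exon blocks. *unc-43* had 40.6, 46.3, 42.3 and 46.0 CPM in control replicates 1 to 4 and 51.8, 50.1, 49.7 and 48.9 CPM in UA. All UA libraries were above all control libraries, and the UA libraries varied less. The mean was 43.8 ± 2.79 CPM in control and 50.1 ± 1.21 in UA (SD, n = 4 each), a fold change of 1.14 with a 95% interval of 1.05 to 1.25. The unadjusted p for *unc-43* was 0.0064 and the adjusted p 0.382 in edgeR, with a range of 0.130 to 0.776 over the alternatives. The change is below the study's fold threshold, so that *unc-43* was not called. The log2 fold change was 0.24 in replicates 1 and 2 and 0.16 in replicates 3 and 4 (interaction, adjusted p = 0.907 in edgeR). Against *tax-6*, the phosphatase that the same calcium signal activates, *unc-43* stood at a ratio of 0.481 in control and 0.497 in UA (exact permutation test, p = 0.714, adjusted p = 0.714). Among 14 neuron markers, 1 (*unc-64*) was called higher with UA, where 4.12% of all genes were, and their summed level was 332 to 389.5 CPM in control and 325 to 404 in UA. Most of that sum was *snb-1*, with 201 of 356 CPM in the control means. The log2 fold change of 4 neuron markers was above 0 in replicates 1 and 2 (median -0.031), and of 12 in replicates 3 and 4 (median 0.13). All 10 body wall muscle markers had a log2 fold change below 0, with a median of -0.12 and none called. Within the pairs of numbers they moved in opposite directions, with all 10 below 0 in replicates 1 and 2 (median -0.43) and all 10 above 0 in replicates 3 and 4 (median 0.20), while the value of *unc-43* was above 0 in both. The part of these tissues in the result for *unc-43* was not tested.

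Calcium leaves the ER through the IP3 receptor ITR-1 and the ryanodine receptor UNC-68, which serves muscle, and TMCO-1 is the nematode counterpart of a mammalian ER channel that lets calcium out of an overfilled store. *itr-1* (CELE_F33D4.2, chromosome IV, forward strand, 7675174 to 7696930) had 39.0, 37.0, 34.6 and 46.2 CPM in control replicates 1 to 4 and 41.4, 37.3, 50.9 and 46.2 CPM in UA. The UA library was higher in each number, but for replicates 2 and 4 hardly so, and replicate 3 alone carried a large gap. The fold change of *itr-1* was 1.12 (95% interval 0.944 to 1.33, unadjusted p = 0.169, adjusted p = 0.826 in edgeR). *itr-1* was called under none of the 15 alternatives, and had an unadjusted p under 0.05 in 1 of them (0.035, without control replicate 4). *unc-68* (CELE_K11C4.5, chromosome V, reverse strand, 6901681 to 6929038) was the most variable of the 10, with 23.8 to 33.02 CPM in control and 21.9 to 32.2 in UA (fold change 1.08, 95% interval 0.870 to 1.35, adjusted p = 0.919). The summed body wall muscle markers also varied widely, from 620 to 1068 CPM in control and from 711 to 989 in UA. Their part in the spread of *unc-68* was not tested. *itr-1* outweighed *unc-68* in every library, and the *unc-68* to *itr-1* ratio was 0.383 in control and 0.370 in UA (exact permutation test, p = 0.457, adjusted p = 0.643).

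*tmco-1* (CELE_F22B5.10, chromosome II, forward strand, 8467174 to 8468010) had 103, 105, 96.4 and 92.9 CPM in control replicates 1 to 4 and 106, 110.04, 92.6 and 87.4 CPM in UA. With UA it was higher in replicates 1 and 2 and lower in replicates 3 and 4. The fold change over all libraries was 0.997 (95% interval 0.887 to 1.12, adjusted p = 0.994 in edgeR), an interval that lies within 1.2-fold in both directions. The interaction for *tmco-1* did not pass (log2 -0.13, adjusted p = 0.674). In both conditions *tmco-1* was lower in replicates 3 and 4 than in replicates 1 and 2 (fitted log2 difference -0.20, adjusted p = 0.0107 in edgeR). That grouping was taken from these data and runs across the transcriptome, so the difference is not read as a trait of *tmco-1*. The share of all genes that differed between the pairs of numbers is not given here.

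SCA-1 is the SERCA pump and CRT-1 is calreticulin, the calcium-binding chaperone of the ER lumen. *sca-1* (CELE_K11D9.2, chromosome III, reverse strand, 10811906 to 10816844) had 551, 542, 584 and 557 CPM in control replicates 1 to 4 and 594, 581, 576 and 604 CPM in UA. Control replicate 3 lay among the UA libraries, and the other control libraries lay below all of them. The fold change of *sca-1* was 1.05 (95% interval 0.990 to 1.12, adjusted p = 0.744 in edgeR). *crt-1* (CELE_Y38A10A.5, chromosome V, reverse strand, 6098992 to 6100542) ranged from 1097 to 1261 CPM in control and from 1079 to 1259 in UA, with a fold change of 1.002 (95% interval 0.906 to 1.11, adjusted p = 0.997). The sign of this value turned under 8 of the 15 alternatives. For both genes the interval lay within 1.2-fold. *crt-1* stood at 6.05 times the level of *sca-1* per kb in control and 5.74 in UA (exact permutation test, p = 0.257, adjusted p = 0.579). The *sca-1* to *itr-1* ratio, of the pump to the IP3 receptor, was 32.2 in control and 30.3 in UA (exact permutation test, p = 0.571, adjusted p = 0.643).

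MCU-1 is the pore of the mitochondrial calcium uniporter. *mcu-1* (CELE_K02B2.3, chromosome IV, reverse strand, 5937447 to 5939230) had 111, 106, 101 and 94.2 CPM in control replicates 1 to 4 and 98.7, 104.2, 95.2 and 90.7 CPM in UA. The UA value was the lower in each number, but the groups overlapped. Replicates 3 and 4 lay below replicates 1 and 2 of the same condition, with a fitted log2 difference of -0.14 (adjusted p = 0.0366 in edgeR). The grouping was taken from these data and runs across the transcriptome, so this difference is not read as a trait of *mcu-1*. The fold change of *mcu-1* was 0.944 (95% interval 0.859 to 1.04, adjusted p = 0.839 in edgeR), within 1.2-fold. The *mcu-1* to *itr-1* ratio, of mitochondrial uptake to ER release, was 21.1, 21.2, 21.5 and 15.1 in control replicates 1 to 4 and 17.6, 20.7, 13.8 and 14.5 in UA. It was lower with UA in 4 of 4 numbers, and control replicate 4 lay among the UA libraries (0.843-fold, exact permutation test, p = 0.171, adjusted p = 0.514). The *tmco-1* to *itr-1* ratio was 30.5 in control and 27.01 in UA (exact permutation test, p = 0.371, adjusted p = 0.643).

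**Figure D4:**
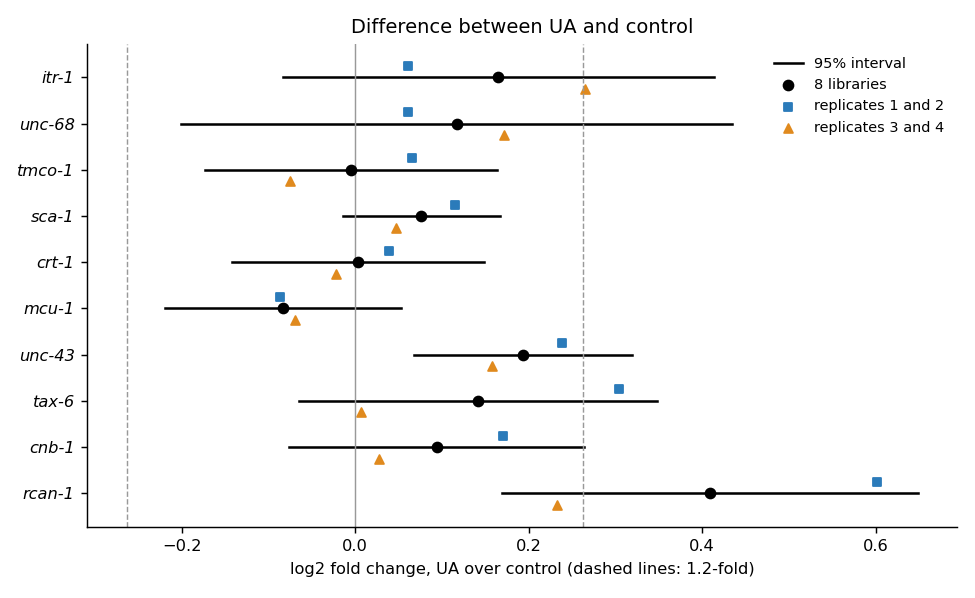
Log2 fold change of UA over control for the 10 genes, with the 95% interval over 8 libraries (black), the values in replicates 1 and 2 (blue squares) and in replicates 3 and 4 (orange triangles), and dashed lines at 1.2-fold. The intervals of *unc-43* and *rcan-1* lie above 0, and *tax-6* and *rcan-1* show the widest gaps between the pairs of numbers.

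Around the 10 genes, 76 other genes of calcium handling were listed in 7 groups, of which 73 were in the table and 65 were tested. With UA 2 of the 65 were called higher and none lower at the study's thresholds (5.67% of all genes), and 4 had an unadjusted p under 0.05 (7.25% of all genes). Neither count exceeds the share over all genes. Both called genes belong to the group of 8 genes that make and remove IP3, the ligand of ITR-1, and both code for enzymes that remove it. *lfe-2*, an IP3 3-kinase, had 16.3, 17.5, 20.1 and 20.8 CPM in control replicates 1 to 4 and 21.8, 22.7, 23.6 and 23.8 CPM in UA. Its log2 fold change was 0.30 (SE 0.091, adjusted p = 0.422 in edgeR). *ipp-5*, an inositol 5-phosphatase, had 3.98, 4.00, 4.24 and 4.13 CPM in control and 5.30, 6.55, 5.36 and 4.45 CPM in UA, which gave 0.41 ± 0.14 (log2 fold change ± SE, adjusted p = 0.493 in edgeR). In both genes the UA libraries were all above the control libraries. Neither was called in replicates 3 and 4 alone (log2 fold change 0.21 for *lfe-2* and 0.23 for *ipp-5*). *lfe-2* was not called without control replicate 1, and *ipp-5* not without UA replicate 2. The group's median log2 fold change was 0.21, with 7 of 8 above 0 (48.9% of all genes), and the phospholipase C gene *egl-8*, which makes IP3, had 0.15 (unadjusted p = 0.0119, adjusted p = 0.446).

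The ER group of 12 tested genes held no called gene. *orai-1*, the plasma membrane channel that refills the store, had a log2 fold change of 0.23 (unadjusted p = 0.0089, adjusted p = 0.422 in edgeR). Both *egl-8* and *orai-1* are named because of their values. None was called among the 12 pumps and exchangers of the plasma membrane, the 6 subunits of voltage-gated channels, the 7 mitochondrial genes, the 11 calmodulin-like genes and the 9 kinases and their partners, whose median log2 fold changes ran from -0.023 (mitochondrial) to 0.19 (kinases). The calmodulin gene *cmd-1*, which serves both UNC-43 and TAX-6, was at 390.1 CPM in control and 393 in UA, a log2 fold change of 0.012, and was the most abundant of its group. In replicates 1 and 2 alone, 7 of the 65 genes were called, a share no higher than the 11.8% of all genes. Of these *plc-3*, *lfe-2*, *ipp-5*, *egl-30* and *crtc-1* were higher with UA and *cca-1* and *cal-5* lower. The adjusted p there was 0.00995 for *crtc-1*, 0.0325 for *egl-30* and 0.0401 for *lfe-2* in edgeR, where 3.98% of all genes were under 0.05. *crtc-1*, a cofactor of CREB whose nuclear entry calcineurin promotes, had a log2 fold change of 0.48 in replicates 1 and 2. Its value was 0.038 in replicates 3 and 4, and 0.24 over all libraries (adjusted p = 0.738). In replicates 3 and 4 alone, 2 of the 65 were called, *plc-1* and *orai-1* (5.55% of all genes).

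**Figure D5:**
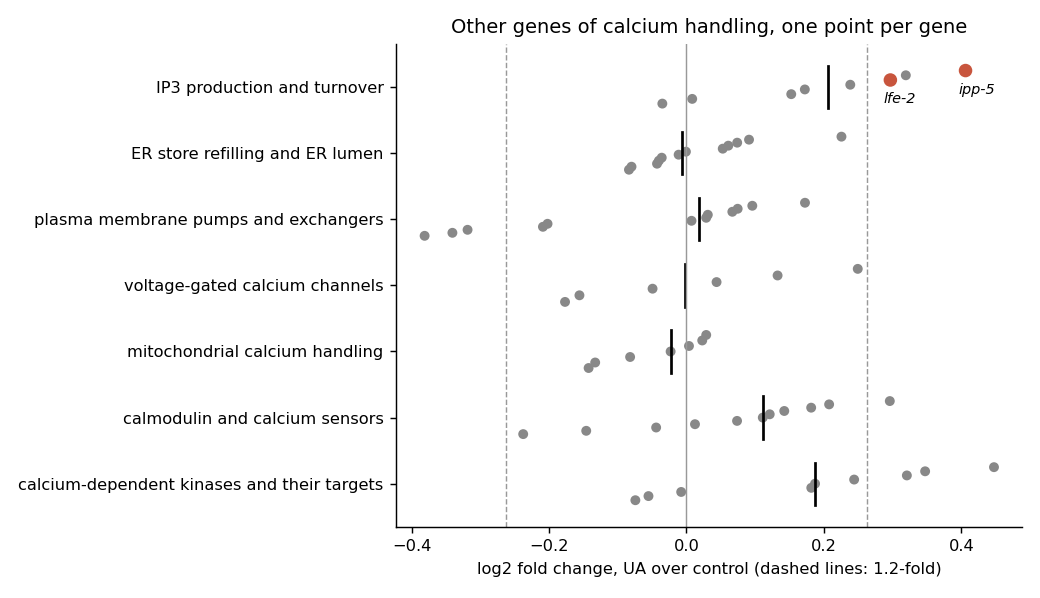
Log2 fold change of UA over control for 65 other genes of calcium handling in 7 groups, with 1 point per gene, red points for the 2 called genes, black bars at group medians and dashed lines at 1.2-fold. *lfe-2* and *ipp-5* are the red points, and the IP3 group has the highest median, 0.21.

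In a further fit the replicate number was a blocking term. With this replicate block, 1 of the 10 genes, *rcan-1*, again met the study's thresholds (7.97% of all genes; log2 fold change 0.42, adjusted p = 0.176 in edgeR), and none of the 10 passed an adjusted p under 0.05, as did 0.838% of all genes. The adjusted p of *unc-43* was 0.223 under the block. *mcu-1* had an unadjusted p of 0.068 and *tax-6* of 0.0769.

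The files do not state whether strand was used in counting. *rcan-1* shares 25 exon bases with *pst-2* on the opposite strand, or 2.43% of its exons, and *pst-2* had a log2 fold change of -0.034 (unadjusted p = 0.563). *crt-1* shares 92 bases with *smut-1*, *mcu-1* 63 with H32C10.1 and *tax-6* 45 with *ced-5*. Over the 8 libraries, *ced-5* held 40026 fragments against 15477 for *tax-6*, and *pst-2* held 14093 against 4434 for *rcan-1*. *smut-1* held 31676 against 395925 for *crt-1*, and H32C10.1 held 53 against 34191 for *mcu-1*. The log2 fold change was -0.011 for *ced-5* and -0.075 for *smut-1*. The longest overlap, 306 bases or 7.496% of the exons of *sca-1*, is with the antisense RNA K11D9.5, and *itr-1* shares 131 bases with F33D4.12, and both partners had 0 counts in the 8 libraries. Without strand, fragments in these stretches cannot be assigned to 1 gene.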

How the data were processed

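Total RNA of 4 UA-treated and 4 untreated populations was made into stranded poly(A) libraries. The authors aligned the reads to WBcel235 with HISAT (HISAT2 in the submitters' processing notes) and deposited raw counts of fragments per RefSeq gene from featureCounts 1.6.2, with the exon length of each gene (1 table, unit bases). The strand setting is not given in the sources used here. Of 46928 genes, 46925 matched a symbol and 24320 had no count.

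Counts were fitted with edgeR 4.0.16 in R 4.3.3 (TMM normalization, filterByExpr on condition, quasi-likelihood F test), leaving 13720 genes, with Benjamini-Hochberg adjustment over all of them. The study's methods name DESeq2, so version 1.42.0 was an alternative, and their thresholds (p under 0.05, fold over 1.2) define a call. CPM are TMM-scaled. Ratios were tested with exact permutation tests (scipy 1.17.1) and adjusted over 9 ratios. The fit was tested on simulated data. The other alternatives were RLE normalization, no filter, the replicate block, the replicate grouping as a covariate, each pair of numbers alone, and each library left out.

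The labels name 4 biological replicates per condition but do not say that equal numbers were grown together. The methods give separate UA populations, with untreated ones raised in parallel as the control of each sample group, and match no numbers. Deviations from the group means of equal numbers correlated at 0.310, 0.246, 0.191 and 0.353, so a fit with the number as a block was made. Unequal numbers within replicates 1 and 2 (0.333 and 0.192) and within replicates 3 and 4 (0.311 and 0.150) correlated about as closely, so the data do not single out equal numbers. All 10 genes are named with values. Other calcium genes are named where called, over all libraries or in a pair of numbers. *cmd-1* alone is named as the most abundant of its group, and any others are marked in the text. The members, gene lists and replicate grouping were chosen with earlier results of these data known, among them the call of *rcan-1*. P-values set a difference between the conditions against the spread between these populations. In the main fit, which has no covariate, that spread includes the difference between the pairs of replicate numbers.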

Additional observations from a re-analysis of the deposited data

Results flagged for a closer look

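Among 38 sets of 4 libraries examined, 3 held a library far from the others, where chance flags about 1 in 20 (1.9 expected). The *cnb-1* level in control was set apart by replicate 3, the highest at 21.6 CPM, with a gap of 0.835 of the group's range. The log2 ratio of *mcu-1* to *itr-1* in control was set apart by replicate 4, the lowest (gap 0.946 of the range). The log2 ratio of *cnb-1* to *tax-6* in UA was set apart by replicate 3, the lowest (gap 0.866 of the range).

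The UA effect on *tmco-1* had opposite signs in the 2 pairs of replicate numbers, with both UA libraries higher in replicates 1 and 2 and both lower in replicates 3 and 4. The interaction was -0.13 on the log2 scale (edgeR, unadjusted p = 0.115, adjusted p = 0.674).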

How the results depend on the processing

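The 778 genes called over the whole table became 1616 in replicates 1 and 2 only and 625 to 929 with 1 library left out. The 13 genes at an adjusted p under 0.05 in edgeR became 169 with DESeq2, 45 with no filter, 115 with the replicate block, 219 with the replicate grouping as a covariate, 546 in replicates 1 and 2 only and 26 in replicates 3 and 4 only, and ran from 5 to 16 with 1 library left out. Of the 10 genes, 2 were called in replicates 1 and 2 only and 0 in replicates 3 and 4 only, against 1 otherwise. Of the other calcium genes, 7 were called in replicates 1 and 2 only and 1 to 3 with 1 library left out. The 1 ratio past p = 0.05 fell to 0 under the replicate block, whose exact sign-flip test cannot go below 0.125, and the count ran from 0 to 1 with 1 library left out. The 11 genes with an interaction at an adjusted p under 0.05 became 135 with DESeq2, 448 with no filter and 23 with the replicate block, and 0 to 492 with 1 library left out, the highest without control replicate 4. The causes of these shifts were not tested.

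The log2 fold changes nearest 0 changed sign. That of *tmco-1* was 0.066 in replicates 1 and 2 only and ran from -0.060 to 0.052 with 1 library left out. That of *crt-1* was -0.00098 with DESeq2 and with RLE normalization, -0.022 in replicates 3 and 4 only, and from -0.036 to 0.050 with 1 library left out. The log2 ratio of *unc-68* to *itr-1* ran from -0.086 to 0.00065 and that of *unc-43* to *tax-6* from -0.015 to 0.11 with 1 library left out. Between replicates 1 and 2 and replicates 3 and 4, the log2 ratio changed sign for *sca-1* to *itr-1* (0.057 and -0.23), *tmco-1* to *itr-1* (0.0070 and -0.35), *unc-43* to *tax-6* (-0.063 and 0.15) and *cnb-1* to *tax-6* (-0.13 and 0.025), with no test. The other 8 genes kept their sign under all 15 alternatives. The replicate block changed no call among the 10 genes.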
